A study of Homo sapiens with 6 samples.

Results

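The genes described here encode 9 enzymes of serine synthesis and folate-dependent one-carbon metabolism, PHGDH, PSAT1, PSPH, SHMT1, SHMT2, MTHFD1, MTHFD1L, MTHFD2 and ALDH1L2. They were chosen by name out of 35052 genes, and all 9 were among the 13131 genes with enough reads to be tested. All RNA was taken from cultured EoL-1, an established human line of eosinophilic leukaemia, kept in serum-supplemented medium with no stimulus stated. A group of 3 wild-type libraries was compared with a group of 3 libraries from EoL-1 cells whose ATF3 gene had been targeted by CRISPR/Cas9, named knockout in the sample labels and knockdown in the design text. Neither the guide, the edited position, nor whether the replicates are clones, pools or separate cultures is stated, so p-values describe only the spread between these libraries, which may be technical.

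The libraries held from 26766103 to 30117281 estimated reads, and levels are given as TMM-scaled CPM, a gene's reads relative to the library's total. ATF3 stood at 22.9, 16.2 and 23.0 CPM in wild-type replicates 1, 2 and 3 and at 5.62, 8.33 and 4.52 CPM in knockout replicates 1, 2 and 3, which sets the groups apart but leaves transcript in every knockout library. The log2 fold change of ATF3, knockout minus wild type, was -1.75 (SE 0.25; edgeR adjusted p = 0.0098). Of 11 eosinophil markers only RNASE2, RNASE3 and CEBPE had enough reads to be tested. The granule ribonucleases RNASE2 and RNASE3 were present, at 29.4 to 152 and 6.81 to 29.9 CPM over the 6 libraries. EPX, PRG3, CLC, IL5RA and GATA1 were at or near 0, and PRG2, SIGLEC8 and CCR3 stayed at or below 1.65 CPM, so most of the defining markers of the labelled cell type were low or absent. The eosinophil list summed to 36.8 to 52.0 CPM over the wild-type libraries and 116 to 186 CPM over the knockout libraries, with RNASE2 and RNASE3 called higher. MPO of 6 neutrophil and granule markers was called higher while ELANE, AZU1, PRTN3 and LTF were at 0, and that list summed to 42.8 to 68.2 CPM in wild type and 94.1 to 136 in knockout. CSF1R of 5 monocyte and macrophage markers was called higher, with FCGR3A and MARCO at 0 and list sums of 28.9 to 79.6 and 104 to 160 CPM. On the first principal component of log2 CPM (42.1% of the variance) wild-type replicates 1, 2 and 3 lay at -37.9, -13.5 and -34.9 and the knockout libraries at 21.0 to 35.5, and knockout replicate 3 stood apart on the second at -41.7. None of the 6 lymphocyte or 8 endothelial and stromal markers was called. Lymphocyte markers summed to 113 to 136 CPM in wild type and 132 to 173 CPM in knockout, mostly from NKG7, with CD3D, CD3E and MS4A1 at 0, and the endothelial and stromal list summed to no more than 1.09 CPM in any library. The part of these marker shifts in the results on the enzymes was not tested.

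Cells make serine from the glycolytic intermediate 3-phosphoglycerate through PHGDH, PSAT1 and PSPH in the cytosol. Serine hydroxymethyltransferases then move a carbon from serine onto tetrahydrofolate, in the cytosol by SHMT1 and in mitochondria by SHMT2. The MTHFD enzymes convert the folate forms of that unit into each other, and from mitochondria it leaves as formate. Purine, thymidylate and methyl group synthesis use these units. Many of these genes are known targets of ATF4, the transcription factor of the amino acid response, and the mitochondrial branch is known to be abundant in proliferating cells.

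By the test, 8 of the 9 enzyme mRNAs fell in the knockout libraries and none rose, to between 45.7% (PSAT1) and 75.1% (SHMT1) of wild type. The exception was ALDH1L2, which was almost absent from 1 library of each group. Of all 13131 tested genes 21.1% were called at an edgeR adjusted p of 0.05, 9.72% lower and 11.4% higher. The same 8 enzymes had every knockout library below every wild-type library, which held for 21.4% of all tested genes, while 22.2% lay apart in the other direction. The median log2 fold change of the 9 genes was -0.68, against 0.01 over all tested genes. The fall of MTHFD1 rests on an incomplete set of its transcripts, and not all of these were lower (described with that gene). With MTHFD1 set aside 7 of 8 fell. In these bulk libraries fewer cells expressing a gene and less RNA per cell cannot be told apart. The plot of CPM by gene shows the groups apart for every enzyme but ALDH1L2. Without wild-type replicate 1 no gene of the 13385 tested passed edgeR, with a smallest adjusted p of 0.0503, against 3496 at an unadjusted p under 0.05. In that setting DESeq2 still called 8 of the 9 lower and limma-voom called 0.

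**Figure D1:**
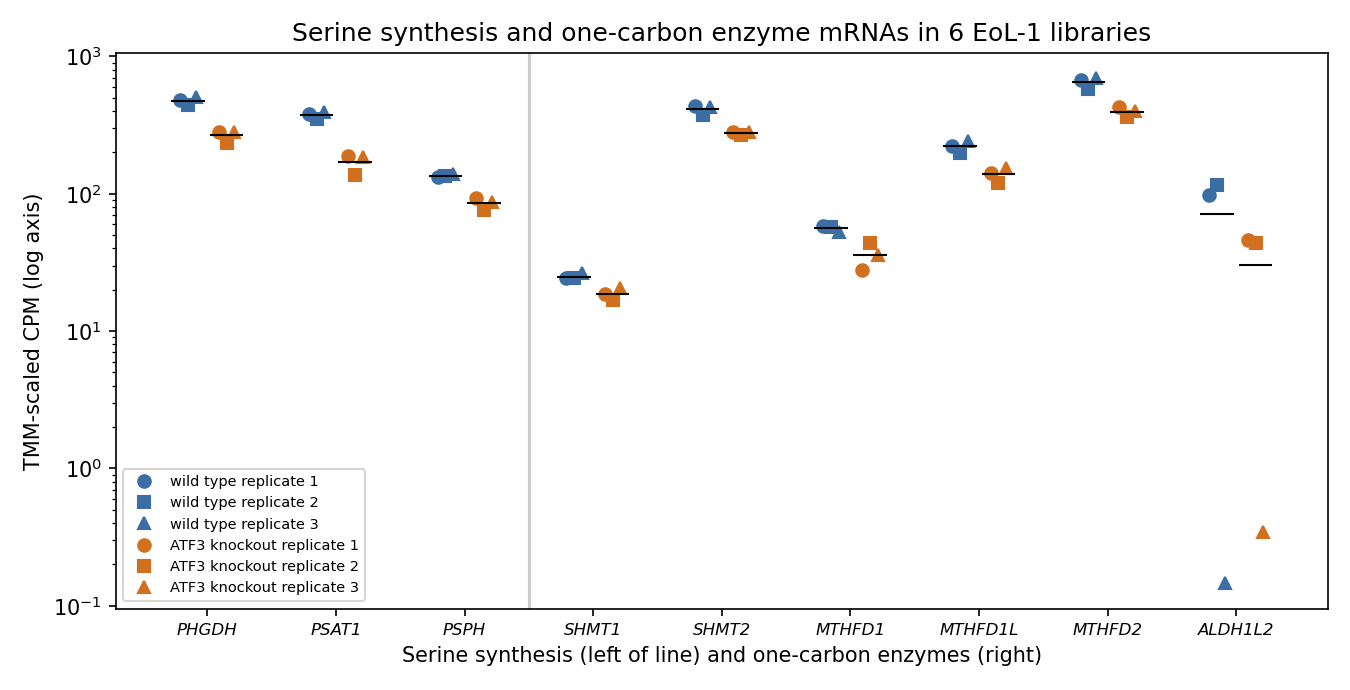
TMM-scaled CPM (log axis) of the 9 enzyme genes in each of the 6 libraries, with wild type in blue, ATF3 knockout in orange, marker shapes for replicates and black lines for group means. The knockout libraries lie below all wild-type libraries for each gene except ALDH1L2, where replicate 3 of both groups lies below 1 CPM.

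PHGDH, the phosphoglycerate dehydrogenase that commits carbon to serine (ENSG00000092621.12, GRCh38 chromosome 1, 119648411 to 119744226, plus strand), was measured at 478, 442 and 503 CPM in wild-type replicates 1, 2 and 3. The knockout libraries held 283, 235 and 284 CPM. All knockout values were below the lowest wild-type value, with a log2 fold change of -0.83 (SE 0.09, edgeR adjusted p = 0.0081). PSAT1, the aminotransferase of the next step (ENSG00000135069.13, chromosome 9, 78297143 to 78330093, plus strand), had 379, 348 and 393 CPM in the wild-type group, against 189, 137 and 185 CPM in the knockout group. Knockout replicate 2 was the lowest library, and the group means of 373 ± 23.1 and 171 ± 29.02 CPM (SD, n = 3) differed more than the replicates did. PSAT1 had the steepest fall of the called enzymes, by 1.13 (SE 0.13, edgeR adjusted p = 0.0081), to a level 2.19-fold lower. PSPH, the phosphatase that releases free serine (ENSG00000146733.13, chromosome 7, 56011051 to 56051604, minus strand), was nearly constant within wild type at 133, 134 and 139 CPM. In knockout it stood at 92.9, 76.6 and 87.0 CPM, and it fell by 0.67 (SE 0.08, edgeR adjusted p = 0.0081). The pseudogene PSPHP1 held 35.2 to 57.9 reads per library against 2106 to 3826 for PSPH, and the 4 PSAT1 pseudogenes held 1 read in all, so few reads were assigned to these copies. The loss of 1 library ended the call of these 3 genes only when that library was wild-type replicate 1, at an adjusted p of 0.0503 each by edgeR.

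SHMT2, the mitochondrial serine hydroxymethyltransferase (ENSG00000182199.10, chromosome 12, 57229327 to 57234935, plus strand), stood at 438, 375 and 429 CPM in the wild-type group, against 281, 268 and 284 CPM in the knockout group. The groups did not overlap, and the knockout libraries were closer to each other (SD 8.19) than the wild-type ones (SD 34.4). SHMT2 fell by 0.58 (SE 0.07, edgeR adjusted p = 0.0087). SHMT1, its cytosolic counterpart (ENSG00000176974.19, chromosome 17, 18327860 to 18363563, minus strand), had 24.2, 24.4 and 26.3 CPM in the wild-type group, against 18.6, 16.9 and 20.7 CPM in the knockout group. This was the smallest fall of the 8, by 0.41 (SE 0.10, edgeR adjusted p = 0.027). The SHMT1 call ended with average effective length as an offset (log2 fold change -0.34, edgeR adjusted p = 0.0947). It also ended without wild-type replicate 1 (0.0941) or 3 (0.107) or without knockout replicate 1 (0.0747) or 2 (0.0592), by the same test. SHMT1 shares 196 exon bases with SMCR8 on the opposite strand, a gene with 15661 reads over the 6 libraries against 3641 for SHMT1, so some of its reads are uncertain. SHMT2 shares 33 exon bases with NDUFA4L2 on the opposite strand, with 1077 reads against 57551.

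MTHFD2, the mitochondrial dehydrogenase and cyclohydrolase (ENSG00000065911.11, chromosome 2, 74198562 to 74217565, plus strand), held 674, 580 and 693 CPM in the wild-type group, against 425, 364 and 401 CPM in the knockout group. Replicate 2 was the lowest library of either group, and the groups stayed apart. MTHFD2 fell by 0.71 (SE 0.09, edgeR adjusted p = 0.0087). It shares 1324 exon bases with SLC4A5 on the opposite strand, which held 396 reads over all libraries against 86974 for MTHFD2. MTHFD1L, the mitochondrial enzyme that releases formate (ENSG00000120254.15, chromosome 6, 150865549 to 151101887, plus strand), stood at 223, 199 and 243 CPM in the wild-type group, against 140, 120 and 155 CPM in the knockout group. It fell by 0.68 (SE 0.11, edgeR adjusted p = 0.0126), and the call ended without wild-type replicate 1 (0.0637) or 3 (0.0545). MTHFD1, the cytosolic enzyme with 3 activities (ENSG00000100714.15, chromosome 14, 64388031 to 64463457, plus strand), had 58.3, 57.3 and 52.6 CPM in the wild-type group, against 27.9, 43.7 and 35.9 CPM in the knockout group. Knockout replicate 1 was the lowest library and knockout replicate 2 the nearest to wild type, and the sum fell by 0.65 (SE 0.16, edgeR adjusted p = 0.0303).

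The MTHFD1 value is a partial one. ENST00000216605.12 (3136 bases), the sole MTHFD1 transcript that the GENCODE annotation links to RefSeq, had no counterpart by identifier among the quantified transcripts, while each of the other 8 enzymes kept all of its RefSeq-linked transcripts. Of the 15 MTHFD1 transcripts that did match, 3 differed from the annotated length by more than 1000 bases, and these held 55.9% of the reads summed. The gene also shares 178 exon bases with ZBTB25 on the opposite strand, which held 2550 reads against 7668. Transcripts whose identifiers are not in the annotation were assigned to no gene. They held 3.59 to 3.82% of all reads of a library, far more than the MTHFD1 sum, so the missing part could exceed it. The level of MTHFD1, its place among the enzymes and both of its ratios carry that limit. The transcript MTHFD1-209 (ENST00000554768.6), with 41.8% of the reads summed, held 871, 804 and 729 reads in the wild-type group, against 0, 489 and 312 in the knockout group. The next largest, ENST00000545908.6 (33.4%), did not share that gap. It held 406, 489 and 444 reads in the wild-type group, against 418, 391 and 416 in the knockout group, which overlapped. ENST00000557370.3 (7.89%) overlapped too, at 118.4, 80.2 and 56.7 reads in the wild-type group, against 112.4, 113 and 124.4 in the knockout group. ENST00000555709.7 (6.21%) was lower in every knockout library, at 94.5, 134.2 and 75.8 against 65.2, 65.2 and 41.1 reads. Transcripts were not tested singly. The call ended with the effective length offset (log2 fold change -0.33, edgeR adjusted p = 0.133). It ended too without wild-type replicate 1 (0.111), 2 (0.0678) or 3 (0.0811) or knockout replicate 3 (0.0556), so a fall of MTHFD1 as a whole is not shown.

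Promoters were read for the 6 enzymes in the RefSeq promoter table (GRCh38.p14, 250 bases before to 50 after a start), because the genes moved together and ATF4 and MYC have short known motifs. Both strands were searched for TGATGNAA, the core of the C/EBP-ATF response element, TGACGTCA, the cAMP response element, TGANTCA, the AP-1 element, and CACGTG, the E-box. None of the matches in these promoters overlap. Of all 35116 promoters in the table, 3.62% held the first, 1.85% the second, 7.71% the third and 7.26% the fourth. MTHFD1L has 4 listed starts, and 3 of the windows hold the same TGATGCAA and CACGTG. The MTHFD1 window holds CACGTG 15 bases before the start. No window of PHGDH, PSAT1, SHMT1 or MTHFD2 holds any of the 4, which says only that these letters are not in these 300 bases. The windows of MTHFD1L (chr6:150866236-150866535, plus strand), which holds matches, and of PSAT1 (chr9:78296875-78297174, plus strand) and MTHFD2 (chr2:74198365-74198664, plus strand), the steepest fall among the called genes and the most abundant, are printed with motif matches in capitals.
MTHFD1L: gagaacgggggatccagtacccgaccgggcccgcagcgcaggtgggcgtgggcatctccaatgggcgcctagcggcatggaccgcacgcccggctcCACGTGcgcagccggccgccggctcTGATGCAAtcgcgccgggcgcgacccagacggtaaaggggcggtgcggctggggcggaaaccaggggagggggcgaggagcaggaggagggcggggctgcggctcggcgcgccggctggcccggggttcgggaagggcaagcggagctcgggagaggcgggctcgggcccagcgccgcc
PSAT1: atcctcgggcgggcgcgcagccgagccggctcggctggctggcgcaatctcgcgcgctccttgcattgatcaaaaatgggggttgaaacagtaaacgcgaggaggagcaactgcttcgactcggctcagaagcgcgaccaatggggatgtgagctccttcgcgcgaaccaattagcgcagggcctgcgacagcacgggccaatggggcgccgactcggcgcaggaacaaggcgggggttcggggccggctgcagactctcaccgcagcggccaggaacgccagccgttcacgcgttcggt
MTHFD2: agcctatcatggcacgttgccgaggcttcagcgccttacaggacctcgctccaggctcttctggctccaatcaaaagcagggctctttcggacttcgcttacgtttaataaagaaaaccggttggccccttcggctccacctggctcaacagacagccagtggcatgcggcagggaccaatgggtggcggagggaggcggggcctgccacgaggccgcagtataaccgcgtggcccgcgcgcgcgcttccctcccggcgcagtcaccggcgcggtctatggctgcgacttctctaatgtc
In the printed MTHFD1L window the E-box starts 154 bases and the C/EBP-ATF core 129 bases before the start listed for that window. In the window chr6:150866197-150866496 these distances are 115 and 90 bases. The window chr6:150866083-150866382 has its start at the first base of MTHFD1L-212 (150866333), the transcript with the most MTHFD1L reads (45.6%). There the E-box starts 1 base before the start and the core 24 bases after it, so their place depends on the start used. A match is a sequence feature, and binding was not measured.

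ALDH1L2, the mitochondrial enzyme that oxidises 10-formyltetrahydrofolate to carbon dioxide (ENSG00000136010.13, chromosome 12, 105019784 to 105084577, minus strand), split each group. Its reads numbered 2713, 3273 and 4 in wild-type replicates 1, 2 and 3. Knockout replicates 1, 2 and 3 had 1191, 1214 and 10. In CPM this was 97.8, 115 and 0.146 for wild type, against 45.8, 44.1 and 0.343 for knockout. The libraries numbered 3 in both groups were therefore more than 100-fold below every other library, in either genotype, and the groups overlapped. The spread left the comparison unresolved, with a log2 fold change of -1.24, SE 1.57 and edgeR adjusted p = 0.611. In both libraries 4 of the 5 quantified ALDH1L2 transcripts were at 0. The main one, ENST00000258494.14, counted 1824, 2498 and 0 reads for wild type, against 1063, 995 and 0 for knockout, and the retained-intron transcript ENST00000549335.5 had 798, 703 and 4.0 and 110, 219 and 10.2.

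None of the 10429 transcripts without a gene held at least 200 reads in the libraries numbered 3 while being 10-fold lower in the other 4. Reads spread over several transcripts would not be found this way. The neighbours NOPCHAP1, which overlaps ALDH1L2 on the opposite strand, and APPL2 did not share the gap, with 38.2 to 45.8 and 10.1 to 12.6 CPM over the 6 libraries. WASHC4 stood at 137 CPM in wild-type replicate 3 and 85.8 CPM in knockout replicate 3, against 126 to 150 CPM elsewhere. C12orf75 was lowest in the same libraries, at 12.98 and 14.91 CPM against 29.2 to 87.7 CPM, and so was SLC41A2, at 0.911 and 0.925 CPM against 1.08 to 3.42 CPM. These neighbours, the tested protein-coding genes within 200000 bases, were chosen after the ALDH1L2 values were seen. Over all 35052 genes 1 other, MAFIP, was at 1 CPM or more in the other 4 libraries and at least 10-fold lower in both libraries numbered 3. SYNRG alone showed the opposite pattern. None of the other 8 enzymes showed such a gap. In wild-type replicate 3 PHGDH, PSAT1, PSPH, SHMT1, MTHFD1L and MTHFD2 had the highest value of their group, SHMT2 the middle one and MTHFD1 the lowest. In knockout replicate 3 PHGDH, SHMT1, SHMT2 and MTHFD1L had the highest value of their group, and PSAT1, PSPH, MTHFD1 and MTHFD2 the middle one.

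**Figure D2:**
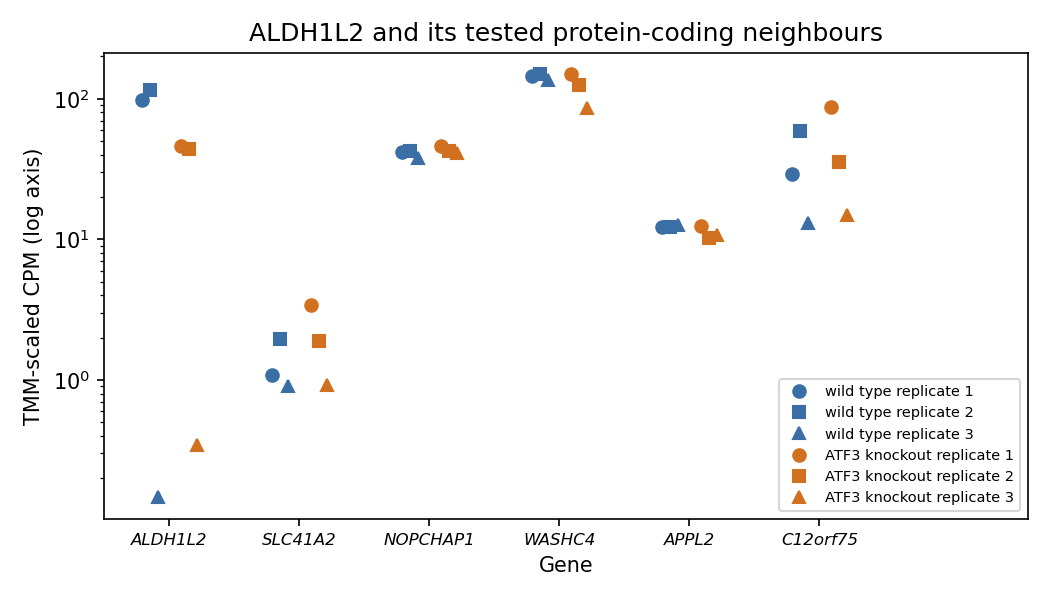
TMM-scaled CPM (log axis) of ALDH1L2 and of its 5 tested protein-coding neighbours in the 6 libraries, coloured by group and shaped by replicate. ALDH1L2 drops to 0.146 and 0.343 CPM in replicate 3 of wild type and knockout, while NOPCHAP1 stays between 38.2 and 45.8 CPM.

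The rise and fall of each enzyme around its own mean is drawn in the bar panels of centred log2 CPM. Within wild type, replicate 2 had the lowest PHGDH, PSAT1, SHMT2, MTHFD1L and MTHFD2. Within knockout, replicate 2 was again the lowest for PHGDH, PSAT1, PSPH, SHMT1, SHMT2, MTHFD1L and MTHFD2, but not for MTHFD1 or ALDH1L2. Profiles were compared by the mean absolute difference of centred log2 CPM over the 6 libraries. MTHFD1L and MTHFD2 were the most alike pair of the 36, at 0.063, followed by PHGDH and MTHFD2 at 0.065 and PSPH and MTHFD2 at 0.065. By the same measure the 3 other protein-coding genes closest to PHGDH, out of 12306, were GARS1 (0.014) and SARS1 (0.027), which charge transfer RNA with glycine and serine, and TMEM268 (0.037). GARS1 stood at a mean of 609 CPM in the wild-type group, against 346 CPM in the knockout group, and SARS1 at 323 and 189 CPM. The closest to MTHFD2 were RFXAP (0.026), PRNP (0.027) and RSL24D1 (0.029). All 6 of these genes were themselves called lower, with log2 fold changes from -0.83 to -0.68. This follows from the choice, since the profiles matched hold the difference between the groups.

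**Figure D3:**
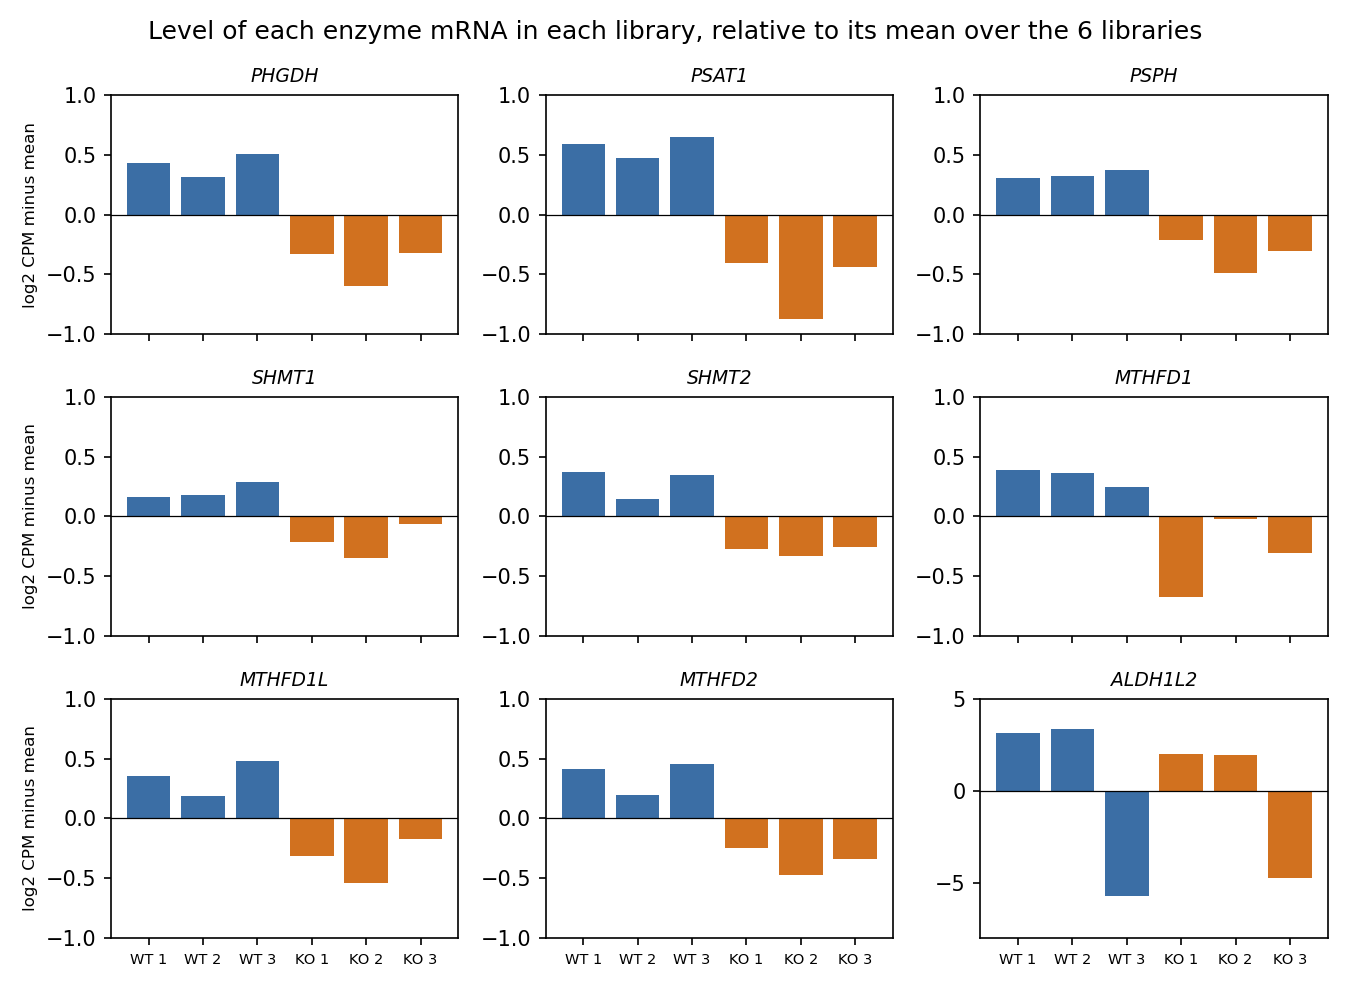
Log2 CPM of each enzyme gene in wild-type (WT, blue) and ATF3 knockout (KO, orange) replicates 1, 2 and 3, minus its mean over the 6 libraries; the ALDH1L2 panel has a wider axis. Bars of the 8 called genes are above 0 in every wild-type library and below 0 in every knockout library, and those of ALDH1L2 are below 0 in replicate 3 of both groups.

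Cytosolic and mitochondrial enzymes were compared next. Of the 5 cytosolic enzymes 5 fell, with log2 fold changes of -1.13 to -0.41, or 4 of 4 with the partial MTHFD1 set aside, and of the 4 mitochondrial enzymes 3 fell, with fold changes of -1.24 to -0.58 including the uncalled ALDH1L2. Where a step has an enzyme in either compartment, the log2 ratio of their CPM was formed within each library. The SHMT2 to SHMT1 ratio was 4.17, 3.93 and 4.02 in wild type and 3.91, 3.98 and 3.77 in knockout, so the groups overlapped. It differed by -0.16 (SE 0.09), with an exact 90% interval of -0.40 to 0.04 taken from all differences between a knockout and a wild-type library. The two-sided exact permutation p was 0.2, and 0.8 adjusted over the 4 ratios, where 3 against 3 cannot go below 0.1. A shift of up to 0.40 toward the cytosolic enzyme is thus within the interval. On the deposited TPM the difference in this ratio was -0.28, and the groups did not overlap (exact permutation p = 0.1, the smallest possible). The MTHFD2 to MTHFD1 ratio differed by -0.04 (90% interval -0.66 to 0.59, exact permutation p = 0.9). The MTHFD1L to MTHFD1 ratio differed by -0.02 (-0.75 to 0.54, exact permutation p = 1), and both carry the limit of the MTHFD1 sum. On the deposited TPM, again with 0.1 added, these differences were -0.32 (exact permutation p = 0.3) and -0.30 (exact permutation p = 0.5). The ALDH1L2 to ALDH1L1 ratio says little, since ALDH1L1, the cytosolic counterpart, stayed between 0.182 and 0.473 CPM and the interval ran from -8.89 to 7.47 (exact permutation p = 0.6).

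**Figure D4:**
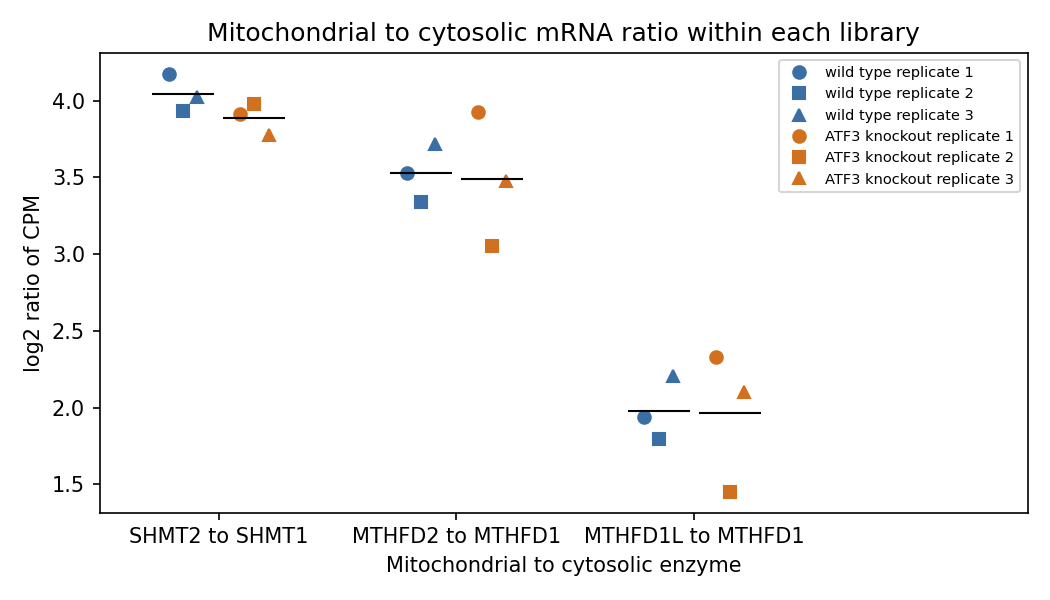
Log2 ratio of CPM of the mitochondrial over the cytosolic enzyme in each library, with wild type in blue, knockout in orange and black lines for the group means. The groups overlap for all 3 ratios drawn, with mean differences between -0.16 and -0.02.

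Levels were compared between genes on the deposited TPM scale, which accounts for transcript length. In wild type the order by mean was MTHFD2 (347 to 430 TPM), PHGDH (247 to 274), SHMT2 (218 to 252), PSAT1 (154 to 172), PSPH (109 to 114), MTHFD1L (77.3 to 96.3), MTHFD1 (19.9 to 22.8, partial), SHMT1 (11.9 to 12.1) and ALDH1L2 (0.017 to 17.0). Neighbours in that order overlapped for PHGDH and SHMT2 and for SHMT1 and ALDH1L2. Among knockout libraries MTHFD2 was again first (250 to 279 TPM), while SHMT2 (152 to 166) and PHGDH (132 to 160) stood in the other order and overlapped again. PSAT1 (66.2 to 88.8 TPM), PSPH (55.9 to 78.8) and MTHFD1L (47.7 to 63.6) overlapped there, which they had not done in wild type. SHMT2 made up 94.8 to 95.5% of the summed SHMT1 and SHMT2 TPM in wild type and 93.6 to 94.8% in knockout.

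Transcript shares within a gene were described without a test. PHGDH-208 (ENST00000641023.1), the main coding transcript, held 65.6 to 69.1% of PHGDH reads in wild type and 64.9 to 67.5% in knockout, so the ranges overlapped. Protein-coding transcripts as a whole held 67.0 to 67.8% of MTHFD2 reads in wild type and 66.7 to 68.7% in knockout, which overlapped. The single transcript MTHFD2-201 was apart, with 39.8 to 41.0% over wild-type libraries and 36.7 to 39.4% over knockout libraries. SHMT2-202 (ENST00000414700.7), the main coding transcript of SHMT2, held a higher share in every knockout library (63.2 to 66.2%) than in any wild-type library (59.1 to 62.2%). All coding transcripts of SHMT2 together held 70.22 to 72.47% and 72.48 to 73.63%, which do not overlap but nearly meet. The nonsense-mediated decay transcript ENST00000556825.5 held 23.6 to 26.5% and 23.0 to 24.9% of SHMT2 reads, which overlapped. Such gaps were not particular to SHMT2 and MTHFD2. PSPH-202 held 9.81 to 15.3% of PSPH reads in wild type and 18.3 to 21.6% in knockout. PHGDH-203 held 1.98 to 2.22% of PHGDH reads in wild type and 0.728 to 1.38% in knockout. These transcripts were chosen after their values were seen, and the share of all transcripts that lay apart was not counted. Reads that fit several transcripts are divided by estimation, so small shifts are uncertain.

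Other genes around the pathway were read from a list of 53, of which 44 were tested. Of these 17 fell and 1 rose, a median log2 fold change of -0.25, against 9.72% of all genes called lower and 11.4% called higher. The fold changes are drawn by group in the plot of the pathway. Among 7 genes of serine uptake and mitochondrial serine import 4 fell and 1 rose. The neutral amino acid exchanger SLC1A5 went from 770 ± 13.1 to 527 ± 45.3 CPM (SD, n = 3) and fell by 0.55 (SE 0.07, edgeR adjusted p = 0.00914). SLC38A1, a sodium-coupled neutral amino acid transporter, fell by 0.73 (SE 0.11, 340 to 205 CPM). SFXN3, a sideroflexin of the mitochondrial serine importer family, was the gene that rose, from 79.0, 100.1 and 83.1 CPM to 130 CPM in knockout replicate 1, 104 in replicate 2 and 123 in replicate 3. Its log2 fold change was 0.45 (SE 0.12, edgeR adjusted p = 0.0393), and the call ended with the effective length offset (0.0724) and without any single library but wild-type replicate 2 or knockout replicate 2.

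**Figure D5:**
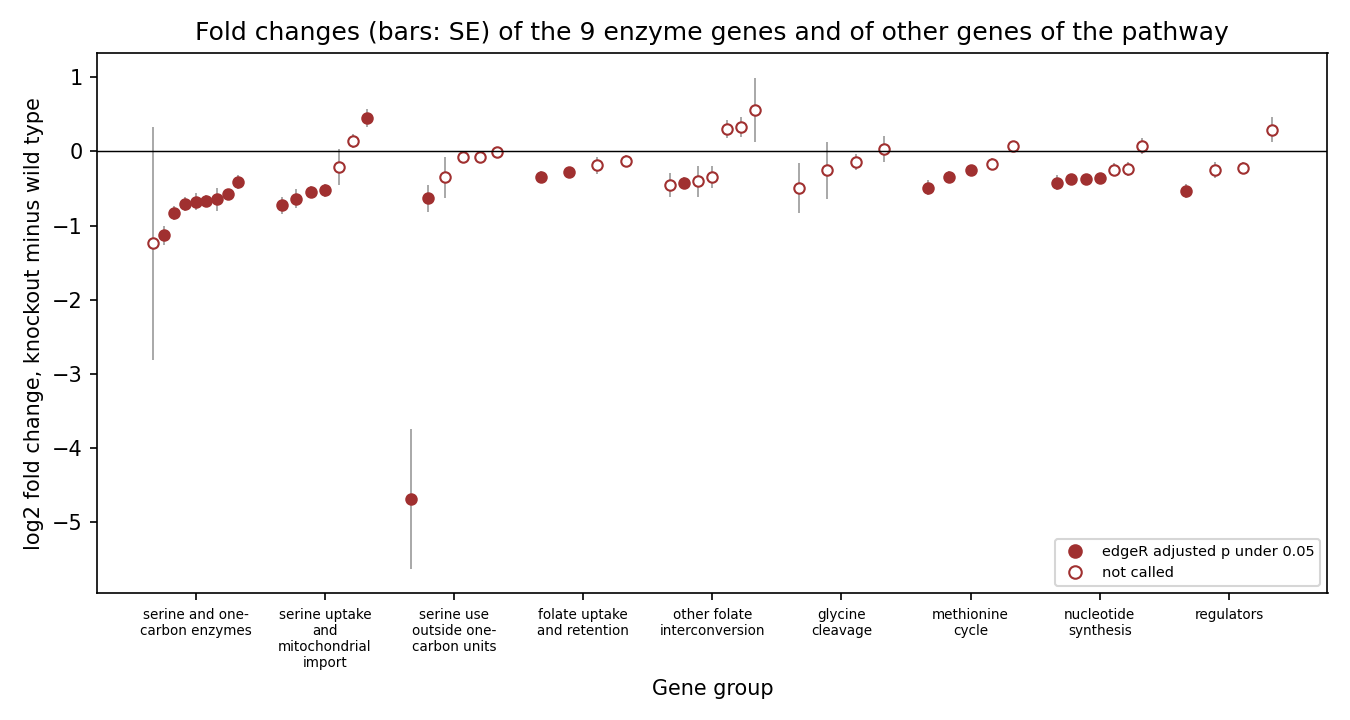
Log2 fold change (knockout minus wild type, bars for SE) of the tested genes, grouped by role, with filled points for an edgeR adjusted p under 0.05. Of the 44 genes outside the 9 enzymes 17 filled points lie below 0 and 1 lies above.

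Among the 6 tested genes that use serine outside one-carbon metabolism 2 fell, CBS and SDSL. CBS, which joins serine with homocysteine, had 2.16, 1.05 and 7.47 CPM in the wild-type group, against 0.231, 0.145 and 0.034 CPM in the knockout group. It fell by 4.68 (SE 0.94, edgeR adjusted p = 0.0188), and leaving out wild-type replicate 3 gave -3.54 (edgeR adjusted p = 0.051). The call also ended without wild-type replicate 1 (0.0631), knockout replicate 1 (0.0508) or knockout replicate 2 (0.0575). SDSL, related to serine dehydratase, fell by 0.63 (SE 0.18, edgeR adjusted p = 0.0478) at under 3 CPM, and no fit without a library kept its call. PTDSS1, SPTLC1, SPTLC2 and SRR did not pass.

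Of 4 tested genes of folate uptake and retention 2 fell. SLC25A32, the mitochondrial folate carrier, fell by 0.34 (SE 0.07, edgeR adjusted p = 0.0209) and SLC19A1, the reduced folate carrier of the plasma membrane, by 0.27 (SE 0.06, edgeR adjusted p = 0.0261). The SLC19A1 call ended with the effective length offset (0.0666) and without wild-type replicate 1 (0.117) or 3 (0.0952) or knockout replicate 1 (0.0802) or 2 (0.0662), and that of SLC25A32 also without knockout replicate 2 (0.0522), by edgeR. None of the 4 glycine cleavage genes passed, and DLD, the most abundant, stood at 123 ± 2.67 and 111 ± 15.7 CPM (SD, n = 3). In the methionine cycle 3 of 5 tested genes fell, among them MAT2A, the methionine adenosyltransferase, by 0.49 (SE 0.10, 638 to 454 CPM), and AHCY, which clears S-adenosylhomocysteine, by 0.25 (SE 0.05). Without knockout replicate 1 both calls ended (edgeR adjusted p = 0.0558 and 0.0633). Of 7 genes of purine and thymidylate synthesis 4 fell, among them the purine enzymes PFAS by 0.36 (SE 0.05) and ADSL by 0.37 (SE 0.06). Of the 4 regulators ATF4 fell, from 666 ± 37.6 to 459 ± 53.8 CPM (SD, n = 3), by 0.54 in log2 units (SE 0.10, edgeR adjusted p = 0.0144). MYC, NFE2L2 and EHMT2 did not pass. All 18 calls on this list ended without wild-type replicate 1 in edgeR, where DESeq2 called 16 lower, and 1 lower call was left without wild-type replicate 3.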

How the data were processed

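Polyadenylated RNA of 6 EoL-1 libraries, 3 wild type and 3 ATF3 knockout, was prepared with the Illumina Stranded mRNA Prep kit, per the labels' protocols. The authors deposited per-transcript tables with estimated counts (NumReads), TPM, length and effective length, as read from the file headers. The submitters' processing notes name Salmon 1.6.0, FastQC 0.11.9 and hg38. For the transcriptome release and strand setting, the sources used here give nothing. Of the deposited estimated counts above 0, 93.0% were not whole. The deposited TPM values served for levels between genes and for 1 alternative.

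Of 177456 transcripts 167027 matched GENCODE 29 (GRCh38) by identifier without version. The 10429 others, with 3.59 to 3.82% of reads, were left out. Counts were summed per gene, rounded, and tested with edgeR 4.0.16 (R 4.3.3, glmQLFit and glmQLFTest, TMM, filterByExpr with minimum count 10, group as the sole term, Benjamini-Hochberg over 13131 genes, threshold 0.05). Ratios used log2 CPM with a prior count of 2. Fold changes are knockout minus wild type. Ratios within a library were tested by exact two-sided permutation.

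On simulated data over 13131 genes, the pipeline called 26.9% of 67 genes changed 1.5-fold, 59.7% of 67 changed 2-fold and 89.4% of 66 changed 4-fold. It made 7 false calls among 12771 unchanged genes. Far fewer genes were changed there than the 2770 called in the data, so these rates need not hold for the data. Alternatives were other scalings, DESeq2 1.42.0, limma-voom 3.58.1, no filter, an effective length offset, a replicate block and single libraries left out. A GC trend and 2 fits without wild-type replicate 1 were added after seeing the data. The enzymes, lists and tests were chosen with earlier results of these data known. The pathway genes named are, per group, the called genes with the 2 smallest p-values or else the most abundant. By that rule 1 further gene would be named, and it is not reported here. SFXN3 is named as the sole gene called higher, and GARS1, SARS1, TMEM268, RFXAP, PRNP and RSL24D1 as the genes closest in profile. MAFIP, SYNRG, the ALDH1L2 neighbours, overlapping genes and uncalled list genes were chosen after their values were seen.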

Additional observations from a re-analysis of the deposited data

How the results depend on the processing

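No alternative turned the direction of any of the 9 enzymes but 1: with limma-voom and without wild-type replicate 1, ALDH1L2 had a log2 fold change of 0.90 (adjusted p = 0.892). Leaving out single libraries in turn gave 0 to 7 enzymes lower in edgeR (8 with all libraries, 0 without wild-type replicate 1, 5 without wild-type replicate 3 and 7 without any other), 0 to 18 pathway genes lower and 0 to 1 higher, and over all genes 0 to 1370 higher and 0 to 1388 lower. The effective length offset gave 722 genes higher and 661 lower, and 0 pathway genes higher. Without the filter on low counts 2 pathway genes were higher. Without wild-type replicate 1, limma-voom called 5 genes lower and 0 higher, with 0 enzymes and 0 pathway genes, while DESeq2 called 1073 higher and 963 lower, with 8 enzymes lower and 0 pathway genes higher. These 2 fits were chosen after seeing the data.

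Over the single libraries left out, the MTHFD2 to MTHFD1 difference ranged from -0.26 to 0.17, MTHFD1L to MTHFD1 from -0.20 to 0.24 and ALDH1L2 to ALDH1L1 from -3.79 to 1.37, so their signs depend on the library; the cause was not tested. Ratios on the deposited TPM had 0.1 added to each value. The SHMT2 to SHMT1 difference was then -0.28, MTHFD2 to MTHFD1 -0.32, MTHFD1L to MTHFD1 -0.30 and ALDH1L2 to ALDH1L1 -1.32. Each was further from 0 than on counts. With the replicate number as a block, ALDH1L2 had a log2 fold change of -1.15 and passed (edgeR adjusted p = 0.0304), the calls of SLC19A1 (0.0517), SDSL (0.0941) and SFXN3 (0.08) ended, 0 pathway genes were higher and 2318 genes were called against 2770. Same-numbered libraries had deviations correlated at -0.092, 0.106 and 0.196, so the numbers are not shown to pair the libraries. Depth limits CBS, SDSL and ALDH1L1, which lay below 8 CPM in every library.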
